A study of Mus musculus with 18 samples.

Results

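The Ly6 family surface proteins were examined as 6 genes, Ly6a, Ly6i, Ly6g, Ly6c1, Ly6c2 and Ly6e, in mouse eosinophils activated in the presence of apoptotic cells. The 6 genes were taken by symbol from the 54446 genes of the deposited table, after matching of Ensembl identifiers with the version dropped, and all 6 were found. Eosinophils came from the peritoneal cavity of NJ.1638 Il5Tg mice (strain C57BL/6 in the labels), whose Il5 transgene raises eosinophil numbers, after removal of Thy1.2+ and B220+ cells. Each culture lasted 18 h and held 5 apoptotic cells (ACs) for every eosinophil, the ACs being thymocytes of wild-type mice that had been treated with dexamethasone for 6 h, and the eosinophils were recovered with anti-Siglec-F beads. The Type 1 experiment had 12 libraries in 4 groups of 3, which were given only ACs, ACs with E. coli, ACs with IFN-γ, or ACs with IFN-γ followed by E. coli (IFN-γ + E. coli + ACs). A further 6 libraries made up the IL-4 experiment, 3 with only ACs and 3 with IL-4 + ACs. Thus every group, including both references, carried the transgene and ACs, and eosinophils without ACs are not analysed here. Mouse age and doses are not given in the labels. The paper's methods give the age of the thymocyte donors and the dexamethasone concentration. They do not give the age of the eosinophil donors or the doses of the stimuli.

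Ly6 proteins are small secreted or membrane proteins that share a three-finger fold held by disulfide bonds, called the LU domain. The members described here are tethered to the outer cell surface by a glycosylphosphatidylinositol (GPI) lipid anchor, and several are used as antibody targets to sort blood cells. Ly6a, or Sca-1, marks hematopoietic stem cells and rises on lymphocytes exposed to interferons. Ly6c1 and Ly6c2 encode the Ly6C antigens of monocytes, and Ly6g encodes the antigen used to recognise neutrophils. Ly6e is broadly expressed and is known as a host factor that limits the entry of some viruses.

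The 6 genes lie in order Ly6e, Ly6i, Ly6a, Ly6c1, Ly6c2, Ly6g on chromosome 15 of GRCm38, from the start of Ly6e at 74955051 to the end of Ly6g at 75159126. Ly6e and Ly6g are on the plus strand and the other 4 on the minus strand. The last 60 coding bases of each, from the longest principal transcript of GENCODE vM21, are shown, and they lie before the 3′ end itself. Libraries were made from the 3′ ends of transcripts, where near-identical genes can exchange reads. The last 300 transcript bases are compared below. Each sequence ends with the stop codon, and capitals mark bases that differ from Ly6a at the same distance from it.
Ly6a, minus strand, chr15:74995262-74995321: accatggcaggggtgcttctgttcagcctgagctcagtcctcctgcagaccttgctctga
Ly6c1, minus strand, chr15:75045402-75045461: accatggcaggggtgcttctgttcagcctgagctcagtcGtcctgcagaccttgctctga
Ly6c2, minus strand, chr15:75108543-75108602: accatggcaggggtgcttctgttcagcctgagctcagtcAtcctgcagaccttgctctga
Ly6i, minus strand, chr15:74979914-74979973: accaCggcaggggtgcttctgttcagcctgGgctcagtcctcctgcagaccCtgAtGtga
Ly6g, plus strand, chr15:75158680-75158739: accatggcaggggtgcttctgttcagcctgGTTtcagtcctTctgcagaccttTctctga
Ly6e, plus strand, chr15:74958654-74958713: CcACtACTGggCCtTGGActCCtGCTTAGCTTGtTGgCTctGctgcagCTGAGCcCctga

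In this stretch Ly6c1 and Ly6c2 differed from Ly6a by 1 base each, Ly6i and Ly6g by 5 bases, and Ly6e by 37 bases. Over the whole coding sequence Ly6c1 and Ly6c2 were 97.7% identical, and their last 300 transcript bases shared an exact run of 124 bases. For Ly6a and Ly6i the coding identity was 86.4% and the longest shared run in the last 300 bases was 35 bases, whereas Ly6e shared at most 9 bases with any other member there. The labels and methods state that only uniquely mapped reads were counted, so reads falling in shared runs were left out or, with mismatches allowed, could be placed on a neighbour. Values of Ly6c1 and Ly6c2 are therefore uncertain as to which of the pair they came from. This also holds for Ly6a, Ly6i and Ly6g, whose shared runs are shorter. Reads misplaced from a high gene would weigh most on the low ones. Ly6g had 0 to 17 reads per library and Ly6c1 had 5 to 96. Ly6a had 326 to 16450 and Ly6c2 had 2374 to 18419. Whether reads were counted by strand is not given in the sources used here.

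Upstream sequence was available for Ly6c1, Ly6c2 and Ly6g, and the 150 bases before the most upstream RefSeq start (GRCm38.p6) are shown for the pair whose transcripts are hardest to tell apart and for Ly6g, which changed with IFN-γ. Capitals mark TATAAA.
Ly6c1, minus strand, chr15:75048838-75048987: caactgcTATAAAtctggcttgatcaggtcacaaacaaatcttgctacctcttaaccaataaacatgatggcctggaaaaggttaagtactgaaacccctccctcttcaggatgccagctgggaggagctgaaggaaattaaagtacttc
Ly6c2, minus strand, chr15:75111972-75112121: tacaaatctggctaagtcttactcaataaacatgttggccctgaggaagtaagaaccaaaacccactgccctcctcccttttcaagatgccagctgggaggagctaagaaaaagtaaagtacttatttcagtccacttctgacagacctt
Ly6g, plus strand, chr15:75155111-75155260: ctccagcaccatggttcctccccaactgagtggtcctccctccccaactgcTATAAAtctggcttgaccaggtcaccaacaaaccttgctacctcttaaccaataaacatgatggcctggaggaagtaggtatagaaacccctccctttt

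The windows were related, with 83.5% identity between Ly6c1 and Ly6g over 206 aligned bases and 75.9% between Ly6c1 and Ly6c2 over 216 aligned bases of the 250 searched. TATAAA, searched on both strands, was present in the 250 bases of Ly6c1 and Ly6g and not in those of Ly6c2, and in 12.4% of the 32851 promoter windows of the same length. The letters TTCNNNGAA were present in 7.02% of all windows, and GAAA repeated after any 2 bases, as in interferon response elements, in 2.98%, and neither was in the windows of these 3 genes. No match says only that these letters are not in these windows.

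The signal of a gene in a library was a normalized count, that is, its reads scaled by the library's size factor. Reads counted on genes numbered 779421 to 7782072 per library. The 2 shallow libraries were replicate 3 of ACs in the IL-4 experiment, with 779421 reads, and replicate 3 of IL-4 + ACs, with 849705, and in them 1 read stood for normalized counts of 5.36 and 5.14. As to the labelled cell type, Siglecf was at 438 reads or more in every library, and all 11 eosinophil markers were detected in each group. The summed normalized count of these markers ranged from 10618.5 to 27565. Markers of other cells were detected too. The summed normalized count of 16 peritoneal macrophage markers ranged from 22358 to 60493 and that of 16 neutrophil markers from 4138 to 20137. The macrophage sum was above the eosinophil sum in every library, though sums over different genes are not shares of cells. Alox15 is on both of these lists. The paper reports Selp and Gata6, also on the macrophage list, as raised in eosinophils by ACs. The sum of 20 thymocyte markers ranged from 123 to 661. In these bulk libraries, fewer cells of a type and less RNA per cell cannot be told apart.

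**Figure D1:**
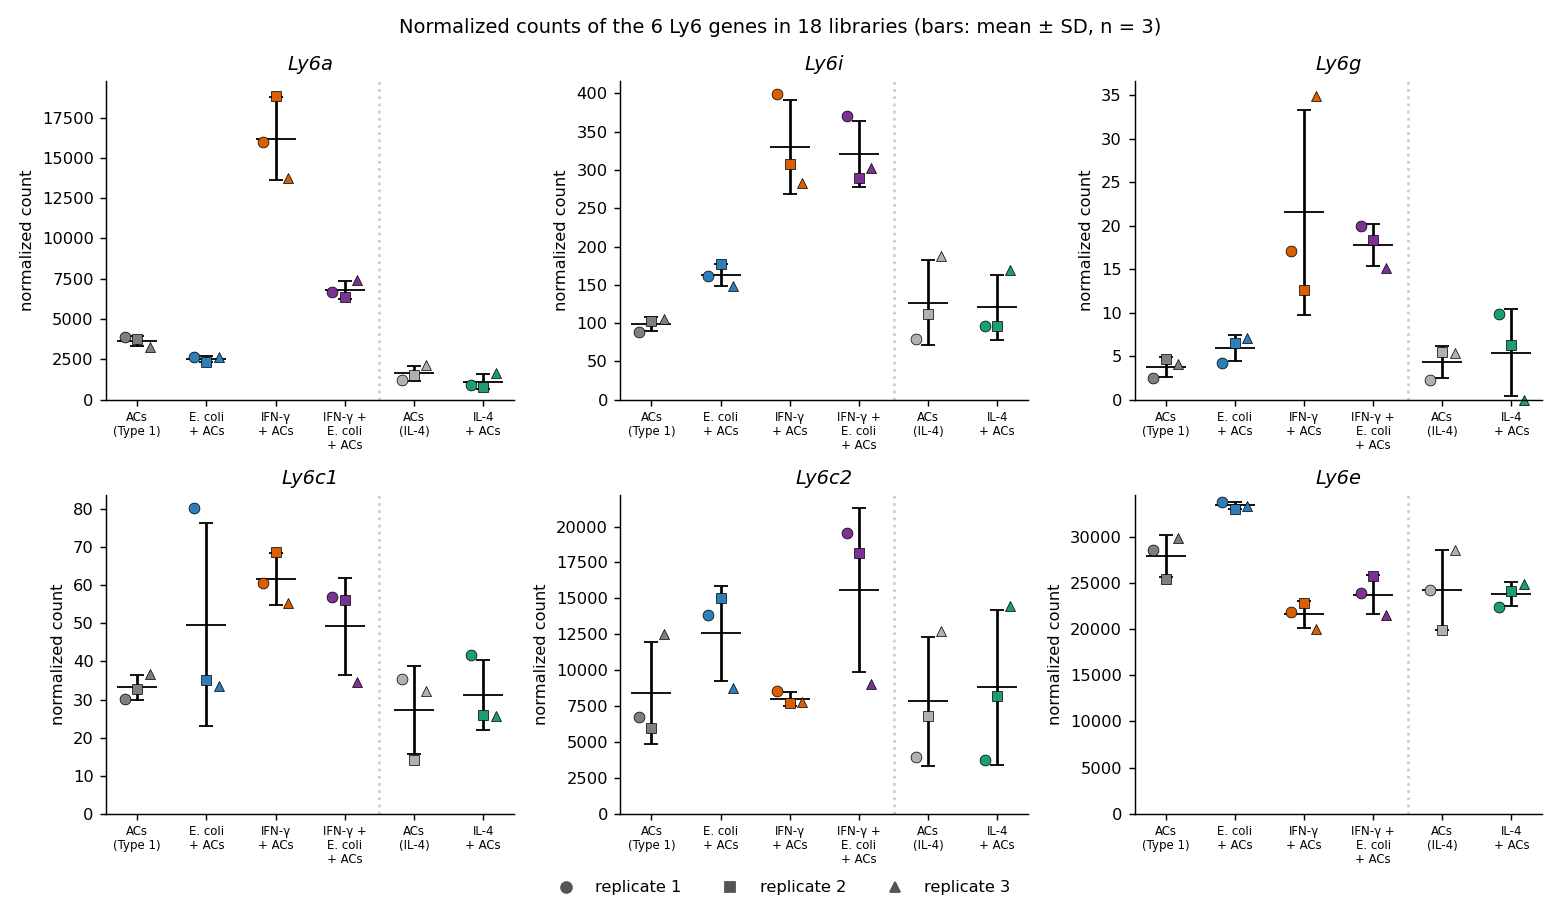
Normalized count (vertical axis, linear, from 0) of each Ly6 gene in the 18 libraries, by group. Symbols are replicates 1 to 3, horizontal lines with bars are the mean ± SD (n = 3), and the dotted line separates the Type 1 and IL-4 experiments. Ly6a, Ly6i and Ly6g are high in the groups with IFN-γ, Ly6e is highest with E. coli + ACs and lowest with IFN-γ + ACs, and Ly6c2 is scattered within most groups.

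Levels were compared on the scale of log2(normalized count + 1) with limma, and a gene was called when its Benjamini-Hochberg adjusted p over all genes tested was under 0.05 and its change was at least 1.5-fold. Fold changes are on that scale, which understates changes of low genes. Levels are given per gene and not ranked between genes, since transcripts differ in length and sequence.

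IFN-γ raised Ly6a, the stem cell antigen Sca-1. With ACs alone the normalized counts of Ly6a were 3917, 3744 and 3266, and with IFN-γ + ACs they were 16003, 18855 and 13741. The groups were far apart, each library with IFN-γ lying above every library without it. The rise was 4.42-fold (log2 2.15, SE 0.12, limma adjusted p = 1.15e-10), and a larger change was found for 2.67% of the 10166 genes tested. Leaving out any 1 library of these groups gave log2 changes from 2.03 to 2.26.

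Ly6i, a close relative of Ly6a that lies beside it, rose as well. Its normalized counts were 87.8, 102 and 106 with ACs and 400, 307 and 283 with IFN-γ + ACs, again without overlap. The rise was 3.29-fold (log2 1.72, SE 0.17, limma adjusted p = 2e-07).

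Ly6g, the neutrophil antigen, was scarcely detected with ACs, where 3, 5 and 5 reads gave normalized counts of 2.44, 4.69 and 4.08. With IFN-γ + ACs, 13, 11 and 17 reads gave 17.2, 12.6 and 34.9, so that all 3 libraries were above all ACs libraries. The fitted rise was 4.47-fold (log2 2.16, SE 0.51, limma adjusted p = 0.00348), and the ratio of the summed reads, 41 against 13, was 5.24 after scaling with a 95% interval of 2.75 to 10.7 that covers counting error only. Ly6g had a mean of 9.8 over the 18 libraries. It passed the limit of 10 in the Type 1 experiment only through the groups where it was high. Its passing is therefore no independent support. The part of any reads misplaced from Ly6a, which also rose, was not tested.

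Ly6c1, of the Ly6C pair, had normalized counts of 30.1, 32.9 and 36.7 with ACs and 60.7, 68.8 and 55.4 with IFN-γ + ACs. It rose 1.83-fold without overlap (log2 0.87, SE 0.31, limma adjusted p = 0.0445), but the call was lost when any 1 of the 6 libraries was left out, with adjusted p from 0.0592 to 0.124. Ly6c2 did not move with IFN-γ + ACs relative to ACs, with a log2 difference of 0.01 and a 95% interval of -0.55 to 0.57. The difference between the responses of the 2 genes was not tested, nor was the part of any reads misplaced from Ly6a or Ly6c2.

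Ly6e, by contrast, was lower with IFN-γ. Its normalized counts were 28584, 25402 and 29795 with ACs and 21876, 22858 and 19973 with IFN-γ + ACs. The groups did not overlap, and the difference of -0.37 (log2, SE 0.11, limma adjusted p = 0.0136) was short of 1.5-fold. After scaling to a common total, which moved the median of all genes by -0.24, it was -0.61 and called. In all, 4 of the 6 genes were called higher with IFN-γ + ACs and none lower, where 11.4% of all genes tested were called higher and 9.96% lower. These were 1160 and 1013 genes, or 738 and 1868 after scaling to a common total. The 4 include Ly6g, which passed the filter only through the groups where it was high. They also include Ly6c1, whose call was lost in every leave-out. Ranges did not overlap in the higher direction for the same 4 genes and in the lower direction for Ly6e, against 22.6% and 20.3% of all genes tested.

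**Figure D2:**
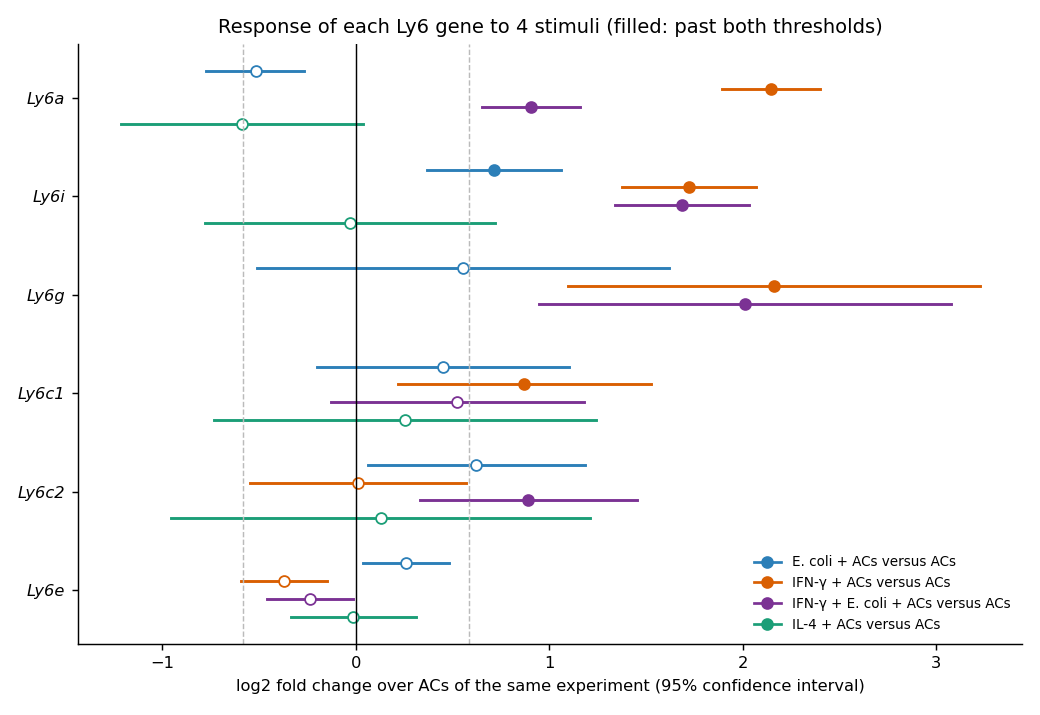
Log2 fold change of each Ly6 gene over ACs of the same experiment (horizontal axis), with 95% confidence intervals from limma (n = 3 per group), for 4 stimuli. Filled circles passed both thresholds, dashed lines mark 1.5-fold, and Ly6g was not tested with IL-4. Ly6a, Ly6i and Ly6g lie well to the right with IFN-γ, and no interval for IL-4 excludes 0.

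Markers of other cells moved with IFN-γ beside the Ly6 genes. Of the 16 peritoneal macrophage markers, 6 rose and 3 fell with IFN-γ + ACs, their median log2 change was 0.36 against 0 over all genes tested, and their summed level was 43519 to 51593 against 32674 to 40438 with ACs. Marco, a scavenger receptor of macrophages, rose by 2.17 on the log2 scale. Of the 7 neutrophil markers tested, S100a8 and S100a9 rose by 1.43 and 2.52 and Mmp8 changed by -1.33, and their summed level was 8407 to 13450 against 8275 to 11082. The granule genes Mpo, Elane and Ctsg, which define immature neutrophils, had no reads in the 3 libraries with IFN-γ + ACs and at most 4 reads in any ACs library. Of the 9 monocyte markers tested 2 rose and 2 fell, among them Ccr2, which fell by 1.75. Of the 8 eosinophil markers tested 4 fell and none rose, with a median of -0.75, among them Siglecf, the target of the recovery beads, which changed by -0.99. Of the 5 lymphocyte and NK cell markers tested 3 fell and none rose, with a median of -1.77, and their summed level was 400 to 484 against 1407 to 1637 with ACs. The part of these cells in the Ly6 changes was not tested.

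E. coli gave another pattern. Ly6i rose, from 87.8, 102 and 106 with ACs to 162, 177 and 149 with E. coli + ACs, without overlap. The change was 1.64-fold (log2 0.72, SE 0.17, limma adjusted p = 0.00603), and it was called whichever library was left out. It was not called when all 18 libraries were fitted together (adjusted p = 0.079). Of the 7 neutrophil markers tested 4 rose and 1 fell with E. coli + ACs, with a median of 1.13 and a summed level of 16782 to 20137 against 8275 to 11082. Of the 9 thymocyte markers 2 rose and none fell, with a summed level of 581 to 661 against 382 to 482. The part of these cells in the rise of Ly6i was not tested.

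Ly6a went the other way. Its normalized counts were 2674, 2317 and 2625 with E. coli + ACs, each below every ACs library, and the difference of -0.52 (log2, SE 0.12, limma adjusted p = 0.00641) was 1.43-fold and thus short of the fold threshold. Without replicate 3 of ACs the difference was -0.60 and was called. The summed macrophage markers were also lower with E. coli + ACs, 23211 to 27902 against 32674 to 40438, with 6 of 16 falling and 1 rising, and their part in the lower Ly6a was not tested.

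Ly6c2 had normalized counts of 6732, 5970 and 12506 with ACs and 13829, 15058 and 8792 with E. coli + ACs. Replicate 3 of ACs lay above replicate 3 of E. coli + ACs, so the ranges overlapped, and the difference of 0.62 (log2, SE 0.27, limma adjusted p = 0.142) was not called. Without replicate 3 of ACs it was 0.95 and was called, as it was with array weights, at 0.63. Ly6e was somewhat higher with E. coli, at 33788, 32968 and 33348, above all ACs libraries, but its log2 difference of 0.26 (SE 0.11, limma adjusted p = 0.12) did not pass.

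The remaining pair was within its spread. Ly6c1 was 80.4, 35.2 and 33.4, with replicate 1 alone far above the ACs libraries, and Ly6g was 4.19, 6.54 and 7.04 from 5, 8 and 8 reads. Of the 6 genes, 1 was called higher with E. coli + ACs and none lower, beside 5.05% and 5.25% of all genes tested. Ly6i and Ly6e did not overlap with ACs in the higher direction and Ly6a in the lower, beside 19.9% and 18.4% of all genes tested.

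With IFN-γ followed by E. coli, Ly6a took a level between those with IFN-γ + ACs and with ACs. Its normalized counts were 6664, 6361 and 7455 with IFN-γ + E. coli + ACs. These were above all ACs libraries by 1.88-fold (log2 0.91, SE 0.12, limma adjusted p = 8.11e-06) and below all IFN-γ + ACs libraries by 2.36-fold (log2 -1.24, SE 0.12, limma adjusted p = 1.23e-06). In that second comparison 13 of the 16 macrophage markers fell and none rose, with a median log2 change of -1.35, and their part in the lower Ly6a was not tested. In the Type 1 experiment the order of Ly6a was thus IFN-γ + ACs, IFN-γ + E. coli + ACs, ACs and E. coli + ACs from high to low, with no overlap between neighbours, and only the last step was short of 1.5-fold.

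The effect of E. coli on Ly6a was tested for its dependence on IFN-γ. The log2 difference with E. coli was -0.52 without IFN-γ and -1.24 with it, and the interaction was -0.72 (SE 0.17, limma adjusted p = 0.0145), the 1 called among the 6 genes, where 7.44% of all genes tested had a called interaction. The call was lost, at -0.68 and -0.64, without replicate 1 of E. coli + ACs (adjusted p = 0.051) and without replicate 3 of ACs (adjusted p = 0.0528), and in the fit of all 18 libraries (adjusted p = 0.188). Of the macrophage markers 7 of 16 had a called negative interaction and 1 a positive one, with a median of -0.80, and their part was not tested. Interactions of like size were not called for Ly6i (-0.75, SE 0.23), Ly6c1 (-0.80, SE 0.44) and Ly6g (-0.70, SE 0.72). Those of Ly6e and Ly6c2 were -0.125 and 0.26. The call alone thus does not set Ly6a apart from Ly6i, Ly6c1 and Ly6g.

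Ly6i, unlike Ly6a, was not detectably lower when E. coli followed IFN-γ. With IFN-γ + E. coli + ACs its normalized counts were 371, 290 and 302, amid those with IFN-γ + ACs, and the difference of -0.03 from IFN-γ + ACs had a 95% interval of -0.38 to 0.31. It was 3.22-fold above ACs (log2 1.69, SE 0.17, limma adjusted p = 1.62e-07) and 1.96-fold above E. coli + ACs (log2 0.97, limma adjusted p = 0.000267). E. coli thus raised Ly6i by 0.72 without IFN-γ and not detectably with it. The interaction of -0.75 (SE 0.23) had a limma adjusted p of 0.0576 and was not called, though it was called without replicate 1 of IFN-γ + E. coli + ACs (-0.86), without replicate 3 of IFN-γ + ACs (-0.85) and by DESeq2 (-0.74).

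**Figure D3:**
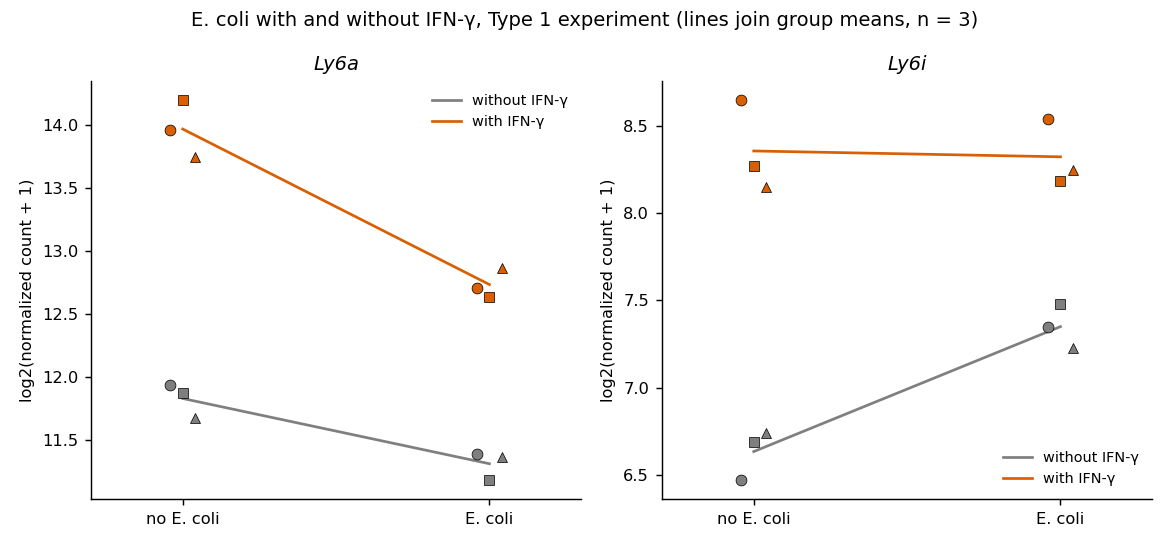
Log2(normalized count + 1) of Ly6a and Ly6i without and with E. coli in the Type 1 experiment, in the absence (grey) and presence (orange) of IFN-γ, with the vertical axes not starting at 0. Symbols are replicates 1 to 3 and lines join group means. The Ly6a line falls more steeply with IFN-γ, and the Ly6i line rises only without it, an interaction of -0.75 that was not called.

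Ly6g stayed high, with normalized counts of 19.96, 18.3 and 15.2 from 14, 15 and 11 reads. It was 4.04-fold above ACs (log2 2.01, SE 0.51, limma adjusted p = 0.004), and the ratio of summed reads, 40 against 13, was 4.83 with a counting interval of 2.53 to 9.83. It differed from IFN-γ + ACs by -0.15 with a wide interval of -1.21 to 0.92. It was also called higher than E. coli + ACs in both groups with IFN-γ, by 1.61 without E. coli (limma adjusted p = 0.0302) and by 1.46 with it (limma adjusted p = 0.0419). Without the filter on low values both calls were lost (adjusted p = 0.0862 and 0.112). The latter call was lost whichever library was left out, and the former in 5 of the 6 leave-outs, all but that of replicate 2 of IFN-γ + ACs. Neutrophil markers were 8302 to 9520 in sum with IFN-γ + E. coli + ACs, within the range with ACs, while S100a8, S100a9 and Cxcr2 rose and Retnlg fell. Mpo, Elane and Ctsg again had no reads. Their part in the Ly6g level was not tested.

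Ly6c2 was scattered in this group as well, with 19568 and 18145 in replicates 1 and 2 and 9054 in replicate 3. It was called 1.86-fold higher than ACs (log2 0.89, SE 0.27, limma adjusted p = 0.0126) although replicate 3 lay below replicate 3 of ACs. The call was lost, with changes of 0.69 to 0.77, when replicate 1 or 2 of either group was left out. It was also called 1.84-fold higher than IFN-γ + ACs (log2 0.88, SE 0.27, limma adjusted p = 0.0253), without overlap. That call was lost when replicate 1 or 2 of IFN-γ + E. coli + ACs or replicate 2 or 3 of IFN-γ + ACs was left out, with adjusted p from 0.0571 to 0.127.

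The other 2 genes were not called with IFN-γ + E. coli + ACs. Ly6e was 23932, 25679 and 21500, with a log2 difference of -0.24 from ACs (95% interval -0.46 to -0.01, limma adjusted p = 0.0865), and Ly6c1 was 57.0, 56.2 and 34.5. Against E. coli + ACs, Ly6e was lower without overlap by 0.50 (log2, limma adjusted p = 0.00208), short of 1.5-fold, though called at a common upper quartile (-0.61) and a common total (-0.65), and IFN-γ + ACs was lower than E. coli + ACs by 0.63 (limma adjusted p = 0.000226) and was called. Without replicate 3 of IFN-γ + ACs that difference was -0.58 and short of 1.5-fold. In all, 4 of 6 genes were called higher with IFN-γ + E. coli + ACs than with ACs and none lower, beside 14.7% and 17.2% of all genes tested. Those shares were 1494 and 1746 genes, or 935 and 2689 at a common total. The 4 include Ly6g, which passed the filter only through the groups where it was high. They also include Ly6c2, whose call was lost in 4 leave-outs. Of the macrophage markers 9 fell and 3 rose in this comparison, and their summed level was 22358 to 25458, below that of ACs.

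For the direct comparisons within the Type 1 experiment, 1 of the 6 genes (Ly6a) was called lower and 1 (Ly6c2) higher with IFN-γ + E. coli + ACs than with IFN-γ + ACs, beside 8.61% and 5.96% of all genes tested. Against E. coli + ACs, 3 genes (Ly6a, Ly6i and Ly6g) were called higher with IFN-γ + E. coli + ACs and none lower, beside 9.79% and 9.57% of all genes. The same 3 were called higher and Ly6e lower with IFN-γ + ACs, beside 9.84% and 6.72% of all genes. In both counts Ly6g had passed the filter only through the groups where it was high, and its calls were lost without the filter. The largest of these changes was that of Ly6a, 6.34-fold higher with IFN-γ + ACs than with E. coli + ACs (log2 2.66, SE 0.12, limma adjusted p = 9.85e-12). Of the genes tested, 0.974% had a larger change. In that comparison 11 of the 16 macrophage markers were called higher and 2 lower, with a median of 1.39, and their part was not tested.

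IL-4 changed none of the Ly6 genes past the thresholds. By limma 0 of the 5 genes tested were called, none had an unadjusted p under 0.05, and edgeR and DESeq2 also called 0 of them, beside 1.09% of all 10669 genes tested with limma. The normalized counts of Ly6a were 1233, 1538 and 2134 with ACs and 907, 782 and 1676 with IL-4 + ACs. Replicate 3, the shallow library, was the highest in each group, and the ranges overlapped. The difference was -0.59 (log2, SE 0.28, limma adjusted p = 0.546). Without both shallow libraries it was -0.71 with an adjusted p of 0.0052 and was called, and with array weights it was -0.61 with an adjusted p of 0.00578 and was called. The adjusted p lay between 0.0052 and 0.884 over all alternatives. Of the 16 macrophage markers 2 fell and none rose with IL-4 + ACs, with a median log2 change of -0.21 against -0.01 over all genes tested. Marco and Vsig4, another macrophage receptor, had log2 changes of -2.58 and -1.36. The summed macrophage markers were 35062 to 50685 against 41601 to 60493 with ACs. Their part in the level of Ly6a was not tested.

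The other 4 tested genes were close to their ACs levels, with 95% intervals of the log2 difference from -0.34 to 0.31 for Ly6e, -0.78 to 0.72 for Ly6i, -0.73 to 1.24 for Ly6c1 and -0.96 to 1.21 for Ly6c2. These intervals leave room for changes of more than 1.5-fold in all of them but Ly6e. Ly6i was 79.7, 112 and 188 with ACs and 96.2, 96.4 and 170 with IL-4 + ACs, with replicate 3 again highest in both. Ly6e ran from 19872 to 28582 with ACs and from 22332 to 24862 with IL-4 + ACs. Ly6g was under the limit for testing, with 3, 7 and 1 reads with ACs and 17, 12 and 0 with IL-4 + ACs, where 0 reads allow a normalized count of up to 15.4.

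The responses to IFN-γ and IL-4, each over ACs of its own experiment, differed for Ly6a by 2.73 (log2, SE 0.30, limma adjusted p = 1.45e-06) and for Ly6i by 1.75 (SE 0.36, limma adjusted p = 0.00163). For IFN-γ + E. coli against IL-4 the differences were 1.495 for Ly6a and 1.72 for Ly6i (limma adjusted p = 0.00101 and 0.00139). Thus 2 of the 5 genes tested were called in each, beside 14.3% and 20.4% of all 10414 genes. Leaving out any 1 library kept both calls in both contrasts. For E. coli against IL-4, limma called 0 of the 5, with 1 (Ly6i) at an unadjusted p under 0.05, edgeR and DESeq2 called 0, and 4.43% of all genes were called. The ACs references of the 2 experiments also stood apart for Ly6a, at 3266 to 3917 in the Type 1 experiment and 1233 to 2134 in the IL-4 experiment, and experiment and library batch cannot be told apart there.

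Ly6c2 stood out by its spread among replicates. Within groups, the SD of log2 Ly6c2 pooled over the 6 groups was 0.65, and of the 83 other genes whose mean normalized count was within 2-fold of its own, only Actb had a larger one. The median SD of those genes was 0.15. The highest library of a group was 1.11 times the lowest with IFN-γ + ACs and 3.86 times with IL-4 + ACs. With at least 2374 reads on Ly6c2 in each library, counting alone gives an error of at most 2.05%. Over the 18 libraries Ly6a and Ly6i were also more scattered than the median gene of their level, with SDs of 0.32 against 0.17 and 0.35 against 0.25. A larger SD was found for 7.94% and 15.2% of those genes. In each group of the IL-4 experiment, the shallow replicate 3 lay farthest from the group mean. Its deviations with ACs and with IL-4 + ACs were 0.42 and 0.66 for Ly6a and 0.65 and 0.54 for Ly6i. Libraries that were not shallow also lay apart there. Replicate 2 of IL-4 + ACs was at -0.437 for Ly6a, and replicate 1 of ACs at -0.571 for Ly6i. In the Type 1 experiment deviations ran only from -0.225 to 0.231 for Ly6a and from -0.204 to 0.291 for Ly6i. The SD of Ly6e was 0.14, below the median of 0.17 at its level.

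The library that lay apart was not always on the same side. In the Type 1 experiment replicate 3 was the highest of ACs and the lowest of E. coli + ACs and of IFN-γ + E. coli + ACs. In the IL-4 experiment Ly6c2 was 3920, 6810 and 12728 with ACs and 3746, 8180 and 14469 with IL-4 + ACs, so that the same-numbered libraries stood in the same order in both groups, with the shallow replicate 3 at the top, as it was for Ly6a and Ly6i. The summed monocyte markers in these libraries were 10270, 12263 and 14905 with ACs and 43994, 38485 and 64018 with IL-4 + ACs, the latter led by Chil3. In ACs of the Type 1 experiment they were 7697, 6885 and 6592, and Ccr2, the chemokine receptor of Ly6C-high monocytes, was 17.1, 18.8 and 20.4. The part of monocytes, of depth and of read placement between the Ly6C pair in this scatter was not tested.

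**Figure D4:**
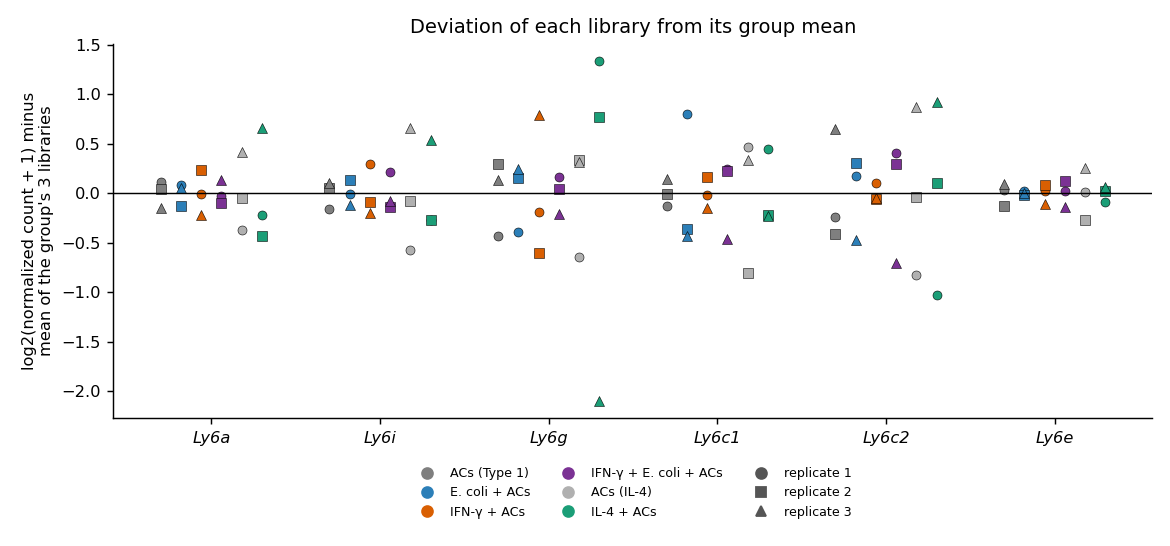
Deviation of each library from the mean of its group, in log2(normalized count + 1) (vertical axis), for each Ly6 gene. Colours are the 6 groups and symbols replicates 1 to 3. Ly6c2 is spread widely although it has at least 2374 reads per library, Ly6e is tight, and the wide spread of Ly6g goes with its 0 to 17 reads per library.

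The genes most like each member were listed by the correlation of log2 levels over the 18 libraries, each minus the mean ACs level of its experiment, among 6903 other genes. The 18 libraries share groups and references, so these values are descriptions. For Ly6a they included Pla2g16 (r = 0.971), a phospholipase, and Irf8 (0.970), a transcription factor of the interferon response. For Ly6i they were Gbp3 (0.954), an interferon-inducible GTPase, Nab2 (0.953), a co-regulator of EGR factors, and Plek (0.949). For Ly6e they were C1rl (0.869), Xbp1 (0.867), a factor of the unfolded protein response, and Mvb12b (0.864). The best values were lower for Ly6c1, with Cct8 (0.780), Fbxo28 (0.760) and Rpl7a (0.745), and for Ly6c2, with Kri1 (0.783), Ogdh (0.765) and Nap1l4 (0.749). Between the members themselves the value was 0.801 for Ly6a with Ly6i, -0.711 for Ly6a with Ly6e and 0.129 for Ly6c1 with Ly6c2.

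Around the cluster, 54 further annotated genes of the table lie within 500 kb, of which 6 were high enough to be tested in the Type 1 experiment. Ly6f, another LU-domain gene, starts 313.4 kb from Ly6e and had normalized counts of 7.32, 10.3 and 1.63 with ACs and 34.3, 28.7 and 36.9 with IFN-γ + ACs. It rose without overlap (log2 2.44, SE 0.52, limma adjusted p = 0.00166), and the ratio of its summed reads, 69 against 22, was 5.21 with a counting interval of 3.19 to 8.85. With IFN-γ + E. coli + ACs it was 14.3, 13.4 and 15.2, above all ACs libraries, and was not called (log2 1.28, limma adjusted p = 0.0604). The ratio of its summed reads, 32 against 22, was 2.28 with a counting interval of 1.29 to 4.12. Like Ly6g it passed the filter through the groups where it was high. Its sequence was not compared with those of the 6 genes, and the part of any misplaced reads was not tested.

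I830127L07Rik, annotated as a transcribed pseudogene between Ly6c2 and Ly6g, behaved differently. With ACs it was 43.9, 43.2 and 40.0. The values were 42.2, 52.7 and 63.6 in the IFN-γ + ACs libraries but 131, 122 and 117 after IFN-γ followed by E. coli. It rose in the last (log2 1.52, SE 0.23, limma adjusted p = 2.59e-05) and was not called with IFN-γ alone (log2 0.30). Of the genes that are not of the family, Them6 fell with IFN-γ + ACs (log2 -1.36) and more with IFN-γ + E. coli + ACs (-2.40), the lincRNA Gm39556 fell with the latter (-0.82), and Gm28068 and Zfp41 were not called. None of the 6 was called with E. coli + ACs by limma, and none of the 6 tested with IL-4 + ACs, where Ly6f was under the filter and Top1mt was tested. Among the genes called higher with IFN-γ + ACs thus lie 3 that were not called, Ly6c2 (log2 0.01), Gm28068 (0.36) and I830127L07Rik (0.30). A missing call does not show the absence of a rise, and differences between these genes were not tested.

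**Figure D5:**
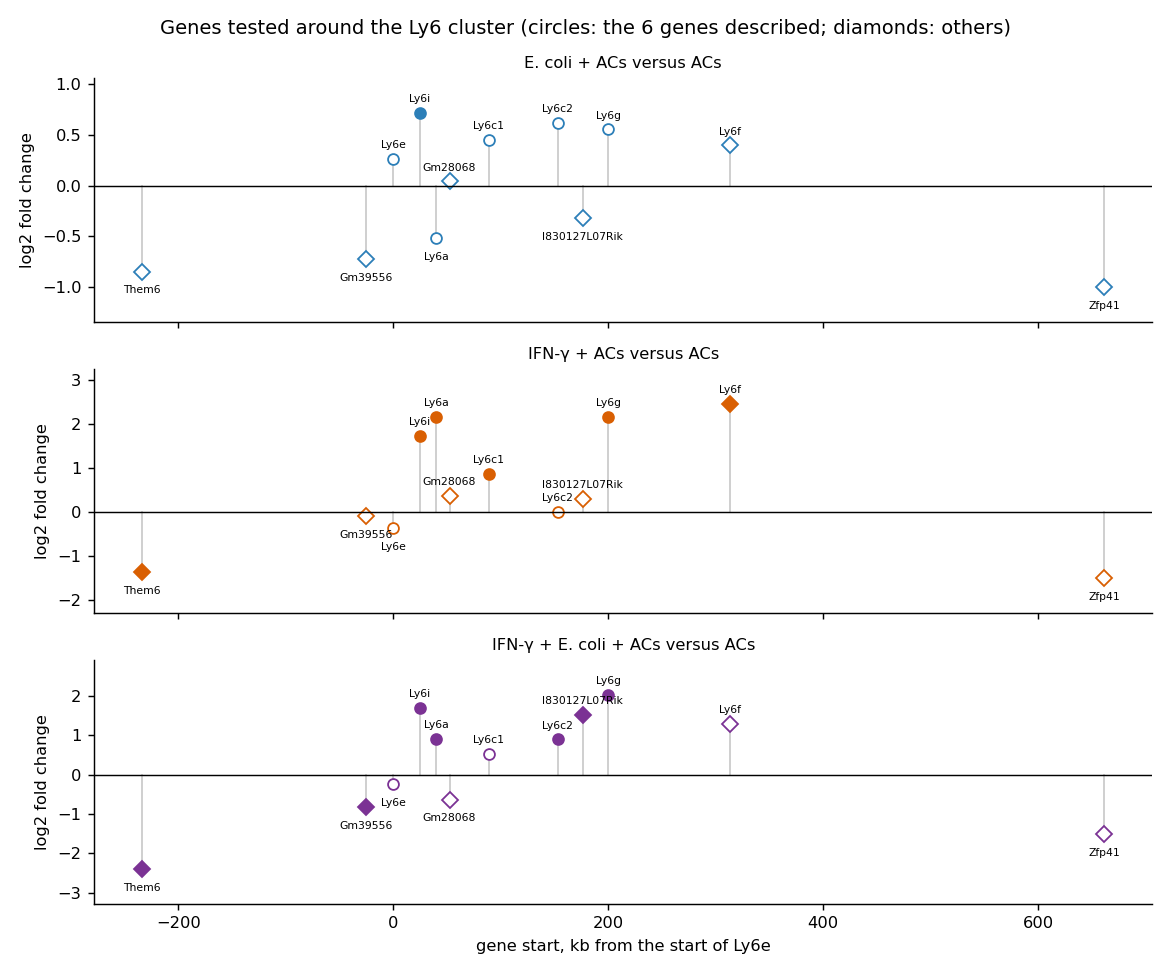
Log2 fold change (vertical axis) of the 12 genes tested within 500 kb of the Ly6 cluster against the distance of their start from that of Ly6e (horizontal axis, kb), for 3 stimuli. Circles are the 6 Ly6 genes described, diamonds the other 6 genes, and filled symbols passed both thresholds. With IFN-γ the called rises are Ly6i, Ly6a, Ly6c1, Ly6g and Ly6f, with uncalled genes between them.

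Elsewhere in the genome, the LU-domain genes were mostly silent here, and 3 of 21 were high enough to be tested in the Type 1 experiment. Plaur, the urokinase receptor and namesake of the wider family, rose with E. coli (log2 1.32, SE 0.16, limma adjusted p = 1.1e-05), with IFN-γ (0.76, adjusted p = 0.0014) and with both (1.44, adjusted p = 8.75e-07). Cd59a, which protects cells from complement, fell, with log2 changes of -1.56, -1.24 and -3.46 in the same order. With IL-4 none of the 3 was called by limma.

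Ly6 proteins need the GPI anchor, and the 30 genes for its synthesis and attachment were listed as well, of which 25 were tested. None was called with E. coli + ACs or IL-4 + ACs by limma. With IFN-γ + ACs 4 fell and none rose, beside 9.96% and 11.4% of all genes tested, namely Mppe1, Pigf, Pign and Pigk with log2 changes from -1.37 to -0.67, and the median change was -0.35 against 0 over all genes tested. With IFN-γ + E. coli + ACs 3 rose and 4 fell, near the 14.7% and 17.2% of all genes tested. Pgap1, which remodels the anchor, and Gpaa1, a subunit of the transamidase that attaches it, rose by 1.61 and 1.36. Pigyl, Pigp and Pigk, the last the catalytic subunit of the transamidase, fell, with log2 changes of -1.51, -1.46 and -0.76.

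Other GPI-anchored surface proteins of leukocytes moved in both directions. Of the 12 tested, 2 rose and 1 fell with E. coli + ACs, beside 5.05% and 5.25% of all genes tested, where Cd52 and Cd14, the lipopolysaccharide co-receptor, rose by 0.93 and 0.92 and Cd48 fell by 0.60. With IFN-γ + ACs 1 rose and 3 fell, beside 11.4% and 9.96%. Bst1 rose by 1.14, and Thy1, Cd48 and Cd55, a complement inhibitor, fell, with log2 changes of -1.77, -1.24 and -1.22. With IFN-γ + E. coli + ACs 3 rose and 3 fell, beside 14.7% and 17.2%, Cd48 and Bst1 keeping their directions at -1.17 and 0.62. Thy1 is also the antigen by which cells were removed from the peritoneal wash before culture, and thymocytes carry it, and it was 3.96 to 17.2 with IFN-γ + ACs against 17.9 to 35.9 with ACs. None of the 10 tested was called with IL-4 + ACs by limma. The median log2 change of this group was between -0.06 and 0.04 in the 4 comparisons.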

How the data were processed

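RNA was measured by CEL-Seq2 in 18 libraries, which tags the 3′ end of transcripts. The signal that the authors deposited is, for each gene, its read count over the DESeq2 size factor of that library. The submitters' processing notes list FastQC 0.11.5, Trim Galore, cutadapt 1.10, TopHat2 2.1.0, Bowtie2 2.2.6, HTSeq 0.6.1, DESeq2 1.26.0 and GRCm38, and the methods also describe a second pipeline with STAR. Which of them made the table, and whether molecular identifiers were collapsed, is not given in the sources used here. Values were whole multiples of 1 step in each library (100.0% within 0.0051 normalized counts plus a very small share of the value), so reads were recovered. Of 54446 genes, 54409 were matched to a symbol.

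Groups and replicate numbers came from the labels, and the ACs libraries were assigned to an experiment by the wording of their descriptions. The study describes 3 biological replicates per group. The 12 Type 1 and the 6 IL-4 libraries were fitted separately with limma 3.58.1 in R 4.3.3 (lmFit, eBayes with a trend) on log2(normalized count + 1), for genes with a mean of at least 10 over the libraries fitted. Differences between responses used all 18. Alternatives were a pseudocount of 5, no filter or a mean of at least 50, common upper quartile or total, array weights, a replicate block, recovered reads tested with DESeq2 1.42.0 and edgeR 4.0.16, all 18 libraries in 1 fit, no fold threshold, and libraries left out. Sequences were aligned with Biopython 1.88, from GENCODE vM21 transcripts and RefSeq promoters. Proteins, and promoters of Ly6a, Ly6i and Ly6e, are not analysed here.

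All 6 members are named in every comparison, and from each list up to 5 called genes with the largest change. The 3 genes most like a member were taken at a mean of at least 50 over the 18 libraries, for members with a mean of at least 10, and 1 of those for Ly6a is not reported here. Marco, Siglecf, Ccr2, Chil3, Thy1, Vsig4, Actb and the granule genes were named after their values were seen. The members, lists and tests were chosen with earlier results of these data known.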

Additional observations from a re-analysis of the deposited data

Results flagged for a closer look

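The response of Ly6a to E. coli differed with and without IFN-γ by a test of the difference itself, with an interaction of -0.72 on the log2 scale (limma adjusted p = 0.0145). The call was lost without replicate 1 of E. coli + ACs (adjusted p = 0.051), without replicate 3 of ACs (0.0528) and with all 18 libraries in 1 fit (0.188). The median interaction of 16 macrophage markers was -0.80, with 7 called negative and 1 positive, and their part was not tested. Interactions of like size, -0.75 for Ly6i, -0.80 for Ly6c1 and -0.70 for Ly6g, had larger SEs and were not called. The flag thus does not set Ly6a apart from these 3 genes.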

How the results depend on the processing

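Ly6a, Ly6i and Ly6g kept their direction and call against ACs, in both groups with IFN-γ, under every alternative that gave a value. Ly6g gave none at a mean of at least 50 or with all 18 libraries in 1 fit, where it was under the filter. In the main fit it passed the filter only through the groups where it was high. Its passing there is no independent support. Depth limits Ly6g, Ly6c1 and the IL-4 experiment, where 3 reads in the shallow libraries stand for 15.42 and 16.08. With groups of 3 an exact permutation test of 1 gene cannot go below p = 0.1. Scaling to a common total moved the median of all genes by -0.24 for IFN-γ + ACs and by -0.29 after IFN-γ followed by E. coli, and a common upper quartile by -0.18 for the latter, and changes under these scalings are relative to those shifts. Unless stated, the cause of a change was not tested.

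With IFN-γ + ACs, Ly6c1 was no longer called without the filter (0.87), at a common upper quartile (0.78), at a common total (0.64) and with all 18 libraries (0.87). Ly6e was called at a common total (-0.61) and with no fold threshold (-0.37). Ly6c2 turned to -0.079 at the upper quartile, -0.23 at the total, -0.095 with edgeR and -0.085 with DESeq2. The members called went from 4 to 2 at a mean of at least 50, where fewer genes are tested, and to 2 with all 18 libraries. With E. coli + ACs, Ly6a was called at a common total (-0.61) and with no fold threshold (-0.52), Ly6c2 with array weights (0.63), each giving 2 members called, and Ly6i was not with all 18 libraries (0.72), giving 0. With IFN-γ + E. coli + ACs, Ly6c2 was not called at a common total (0.64) or with all 18 libraries (0.89), giving 2 with the latter.

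With IL-4 + ACs, Ly6a was called with array weights (-0.61) and without both shallow libraries (-0.71), giving 1 member called, and Ly6i turned to 0.13 with array weights and to 0.026 without those libraries, where Ly6e was 0.081. Without those libraries Ly6c1 turned to -0.012 and -0.085 in the differences of the IFN-γ + E. coli and E. coli responses from that of IL-4. Members called between IFN-γ + E. coli + ACs and IFN-γ + ACs went from 2 to 1 without the filter and with all 18 libraries, and Ly6g turned to 0.094 with array weights. Against E. coli + ACs, Ly6c1 was -0.033 at the upper quartile, -0.079 at the total and -0.006 with edgeR. For the interaction, 2 members were called at a mean of at least 50, at the upper quartile, with array weights and with DESeq2, and 0 with all 18 libraries.

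Leaving out 1 library at a time gave, with E. coli + ACs, Ly6a from -0.60 to -0.46, Ly6c2 from 0.42 to 0.95 and 1 to 3 members called. With IFN-γ + ACs it gave Ly6c1 from 0.79 to 0.94 and Ly6c2 from -0.20 to 0.34. After IFN-γ followed by E. coli, Ly6c2 ran from 0.69 to 1.25. With IL-4 + ACs it gave Ly6e from -0.15 to 0.11, Ly6i from -0.32 to 0.30, Ly6c2 from -0.33 to 0.64 and Ly6c1 from -0.15 to 0.49. Between IFN-γ + E. coli + ACs and IFN-γ + ACs it gave Ly6i from -0.14 to 0.11, Ly6g from -0.45 to 0.25 and 1 to 2 members called, and against E. coli + ACs Ly6c1 from -0.15 to 0.47. Between IFN-γ + ACs and E. coli + ACs 2 to 4 members were called. For the interaction it gave Ly6c2 from -0.066 to 0.61 and 0 to 2 members called. For the differences from IL-4 it gave Ly6c2 from -0.63 to 0.34 with IFN-γ and, with E. coli, Ly6a from -0.15 to 0.40, Ly6c1 from -0.20 to 0.60 and Ly6c2 from -0.019 to 0.96.

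Over genes with a mean of at least 10, samples with the same replicate number had residual correlations from -0.089 to 0.085, and the numbers were not taken as pairs. At a mean of at least 100 they ran from -0.171 to 0.303, and the 3 same-numbered pairs between the groups with IFN-γ had 0.22, 0.24 and 0.303, so those groups may be paired. A fit of these 6 libraries alone, added after seeing the data, called 2 members with the replicate block and 2 without it, Ly6a at -1.24 (adjusted p = 2.98e-05 and 5.01e-05) and Ly6c2 at 0.88 (0.00239 and 0.0146). With the replicate number as a block in all groups, Ly6g between IFN-γ + E. coli + ACs and E. coli + ACs stayed at 1.46 with an adjusted p of 0.0509, and the genes called higher with IL-4 + ACs went from 79 to 45. No other call of the 6 genes changed with the block.

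Counts over all genes moved by over 1.5 times in some settings. Leaving out 1 library gave 31 to 95 genes higher and 16 to 51 lower with IL-4 + ACs, 352 to 407 lower with E. coli + ACs, and 161 to 444 positive and 239 to 582 negative interactions, against 321 and 435. The lowest came without replicate 1 of IL-4 + ACs (for lower genes also without replicate 2 of ACs), replicate 3 of ACs and replicate 1 of E. coli + ACs, respectively. With IFN-γ + ACs, 738 genes were higher and 1868 lower at a common total, against 1160 and 1013. The split after IFN-γ followed by E. coli was 935 and 2689, against 1494 and 1746. With IL-4 + ACs, array weights gave 389 higher and 356 lower against 79 and 37, edgeR 127 and 85, DESeq2 128 and 81, no filter 125 and 83, and leaving out both shallow libraries 345 and 311, and all 18 libraries gave 105 lower. At a mean of at least 50, 645 genes were lower for IFN-γ + ACs, and 963 after IFN-γ followed by E. coli. Against E. coli + ACs, a common total gave 1538 lower in place of 973 after both stimuli and 1047 in place of 683 after IFN-γ alone. Array weights gave 870 lower with E. coli + ACs against 534, and no fold threshold 963 higher against 606 between the groups with IFN-γ. All 18 libraries gave 281 negative interactions against 435. For the differences from IL-4, a common total gave 1009 lower against 643 with IFN-γ, and 745 higher and 1528 lower against 1121 and 1007 with both stimuli. Array weights gave 1281 and 1142 against 843 and 643 with IFN-γ, 1542 lower with both, and 685 and 746 against 265 and 196 with E. coli, where edgeR gave 322 lower and DESeq2 337.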
